A study of Homo sapiens with 3 samples.

Results

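Endoplasmic reticulum (ER) stress and the ATF4 amino acid response were followed in THP-1 macrophages through 39 genes listed by name. The list held 19 targets of the transcription factor ATF4, 12 ER chaperones and folding enzymes, 3 genes of ER-associated degradation and the ER membrane, and 5 sensors and transcription factors of the response. All 39 genes were found on the array, where they had 50 probes, out of 25043 genes with an Entrez identifier. For each gene, the probe with the highest mean of the deposited normalized intensity was used. All 39 of these probes were rated well above background on all 3 arrays, so that no level below is a bound.

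The arrays compared macrophages without treatment (Ctrl), those activated by the toll-like receptor ligand imiquimod (IMQ), and those that received DMD ahead of IMQ (IMQ+DMD). THP-1 cells come from a human leukemia of monocytes, and in all 3 conditions they had first been turned into macrophage-like cells with the phorbol ester PMA at 100 ng/mL. DMD is a benzenediol derived from the fungus Antrodia cinnamomea, and the study asked how it alters the response of macrophages to IMQ. The labels call the agent added to the third culture X, which was read as DMD because the series names no other agent beside IMQ.
The time in the labels is 4 h for all 3 arrays, whereas the methods give a longer exposure to IMQ for THP-1 experiments in general. The labels give no dose of IMQ or DMD. Each condition had 1 array, all on 1 slide, so the differences have no replicate check and no p-value is given. The only repeat measurement was the spread of the probes printed as 10 spots on an array, and the SD given beside a difference is the one expected from that spread at the brightness of the probe. It covers the noise within an array and not the spread between cultures.

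When unfolded proteins gather in the ER, the kinase EIF2AK3 (PERK) phosphorylates the translation factor eIF2α, which slows protein synthesis and favors translation of ATF4 mRNA. Other kinases reach the same factor when amino acids are short, so ATF4 serves both signals, and it switches on genes of amino acid synthesis, uptake, and stress control. ERN1 (IRE1α), which splices XBP1 mRNA, and ATF6, which is cut from the membrane in the Golgi, form separate arms that mainly raise chaperones and degradation factors. In macrophages, toll-like receptor ligands are known to engage parts of these arms. The amounts of ATF4 mRNA and XBP1 mRNA therefore do not measure how active either factor is.

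The ATF4 targets and the chaperones differed in the letters of their promoters. The genes were listed by name for their known roles, so this difference is no independent support for the groups. The windows ran from 250 bases before to 50 bases after the start of each gene in RefSeq on GRCh38.p14, and 37 of the 39 genes matched, PSPH and SHMT2 being the exceptions. The core of the C/EBP-ATF response element, TGATGNAA on either strand, which ATF4 binds together with a C/EBP partner, was present for 7 of 17 ATF4 targets and 0 of 12 chaperones, against 4.46% of the 27305 genes with a window. The ER stress response element, CCAAT and CCACG separated by 9 bases on either strand, was present for 6 of 12 chaperones and 0 of 17 ATF4 targets, against 0.0916% of those genes. Such matches describe the letters in these windows and do not show binding. The stretches below are printed because they show the 2 elements, in members of both groups compared and in HERPUD1 and XBP1 from the other groups, with the element in capitals, in the orientation of the gene from 5′ to 3′ and with coordinates of GRCh38.p14.
ASNS, chr7:97872459-97872486, minus strand: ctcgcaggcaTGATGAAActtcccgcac
CHAC1, chr15:40953252-40953279, plus strand: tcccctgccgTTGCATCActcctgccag
ATF3, chr1:212565206-212565233, plus strand: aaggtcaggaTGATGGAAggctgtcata
CEBPG, chr19:33374061-33374088, plus strand: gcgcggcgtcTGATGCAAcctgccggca
SLC1A5, chr19:46784894-46784921, minus strand: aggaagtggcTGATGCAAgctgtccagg
HERPUD1, chr16:56931956-56931983, plus strand: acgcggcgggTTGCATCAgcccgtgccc
HSPA5, chr9:125241381-125241419, minus strand: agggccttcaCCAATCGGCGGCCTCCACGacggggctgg
PDIA6, chr2:10812843-10812881, minus strand: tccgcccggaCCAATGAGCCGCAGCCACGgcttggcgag
CRELD2, chr22:49918544-49918582, plus strand: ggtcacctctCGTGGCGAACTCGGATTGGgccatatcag
XBP1, chr22:28800593-28800631, minus strand: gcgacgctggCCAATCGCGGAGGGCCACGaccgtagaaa
The response element core began 68 bases before the start in ASNS and 42 bases before it in CEBPG, and it read on the opposite strand in CHAC1 and HERPUD1. SLC3A2 and SLC7A1 held it after the start, where no sequence is printed. HERPUD1 was the 1 degradation gene with this core. The ER stress element began 66 bases before the start in HSPA5 and 52 bases before it in XBP1, the 1 sensor or transcription factor that held it. CALR, CANX, and HSP90B1 were the other chaperones with the element, and the HSP90B1 window held it at 2 places.

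After IMQ, the differences of the ATF4 targets were wide and of both signs, while those of the chaperones were narrow. Of the 39 genes, 5 were at least 2-fold higher after IMQ (ATF3, DDIT4, SESN2, VLDLR, and PPP1R15A), or 12.8%, against 4.36% of the 20816 genes compared. PSAT1 and PHGDH, 2 enzymes of serine synthesis, were at least 2-fold lower, and this share of 5.13% was near the 4.53% of all genes. All 7 genes past the threshold were ATF4 targets, and none of the chaperones, degradation genes, or sensors passed it with quantile normalization. When arrays were scaled to the 75th percentile, the sensor ERN1 also passed it, at 1.02. That made 6 genes higher, against 863 of all genes. With spike-in scaling, ATF3 (0.97), SESN2 (0.88), and VLDLR (0.95) no longer passed, leaving 2 genes higher and 3 lower. Over all genes, 370 were higher and 4504 lower with that scaling, against 908 and 944 with quantile normalization. The difference exceeded 3 times the SD of repeated spots for 29 of the 39 genes. This share was not computed for all genes, so the count does not set the 39 genes apart. The plot of the levels on the 3 arrays shows every gene.

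**Figure D1:**
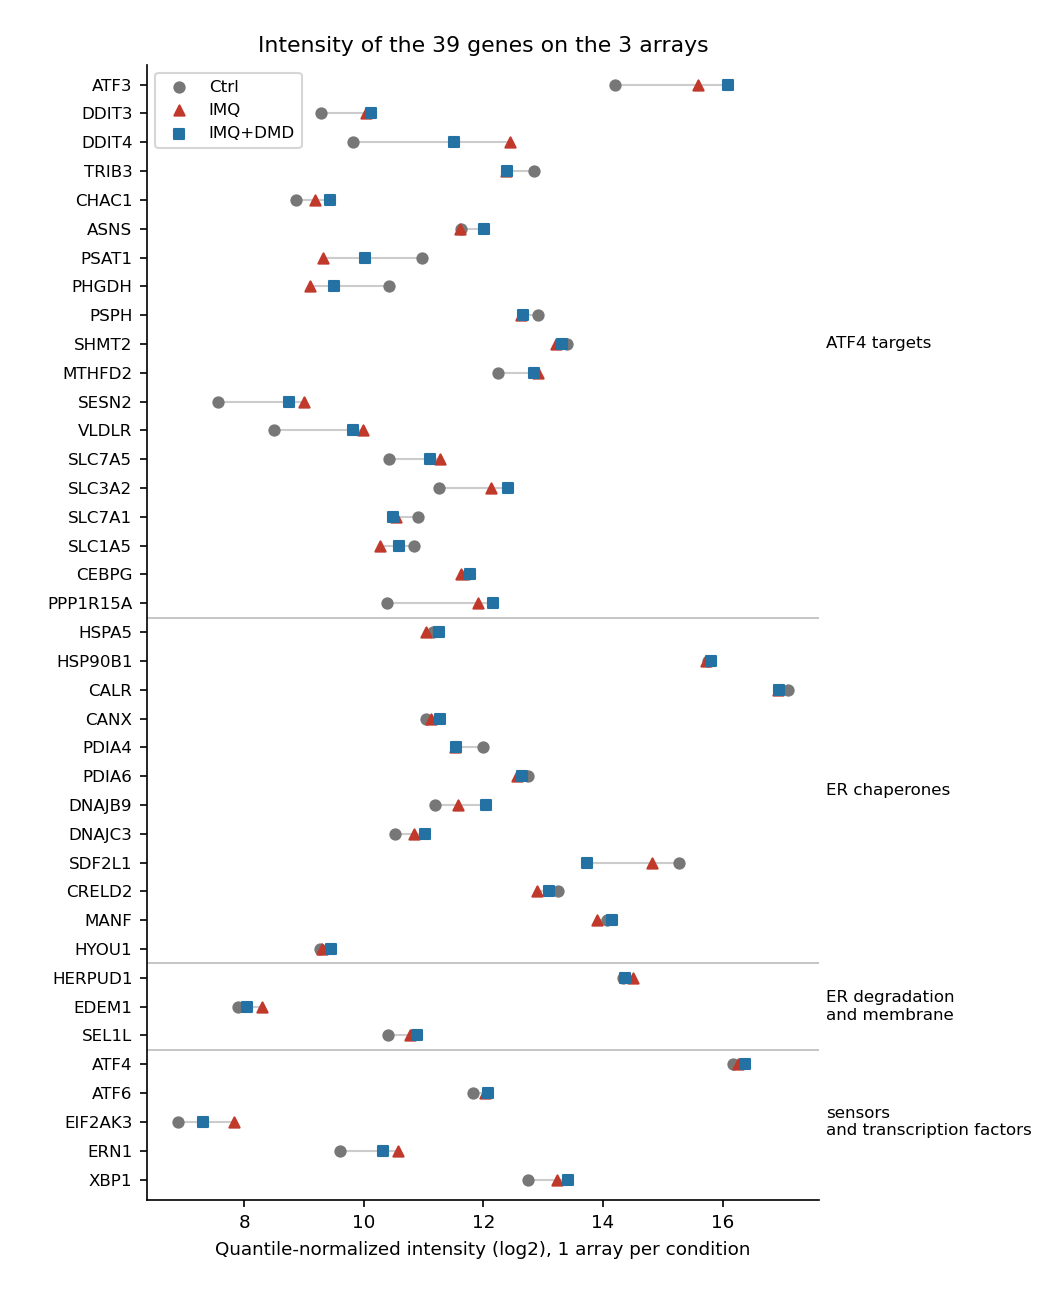
Quantile-normalized intensity on the log2 scale (horizontal axis) of the 39 genes (vertical axis, grouped by role) on the Ctrl array (gray circles), the IMQ array (red triangles), and the IMQ+DMD array (blue squares), with 1 array per condition and a gray line from the lowest to the highest. The widest gap is that of DDIT4, from 9.81 on the Ctrl array to 12.44 on the IMQ array, while most chaperones keep their 3 symbols close together.

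Regulators of the stress response were the ATF4 targets with the clearest gain after IMQ. DDIT4, an inhibitor of mTORC1 signaling read at chr10:74035363-74035422 of hg19, had log2 intensities of 9.81 for Ctrl, 12.44 for IMQ, and 11.50 for IMQ+DMD. It was 6.19-fold higher after IMQ, a log2 difference of 2.63 ± 0.07 (SD), the largest of the 39 genes. Its 10 spots ranged from 9.75 to 9.90 for Ctrl, from 12.39 to 12.51 for IMQ, and from 11.44 to 11.54 for IMQ+DMD, and the 3 ranges did not overlap.
ATF3, a transcription factor induced by many stresses, had log2 intensities of 14.20, 15.60, and 16.09 in the order Ctrl, IMQ, and IMQ+DMD, and it was highest with DMD. The difference between IMQ and Ctrl was 1.40 ± 0.06, or 2.63-fold. PPP1R15A (GADD34), the phosphatase subunit that reverses eIF2α phosphorylation, stood at 10.39, 11.90, and 12.15, a difference of 1.51 ± 0.07 and 2.86-fold. Both genes thus had the same order over the arrays, with Ctrl lowest.
SESN2, a stress protein that senses leucine for mTORC1, had 7.55, 9.00, and 8.74, and the difference after IMQ was 1.45 ± 0.11. DDIT3 (CHOP), the transcription factor linked to death under prolonged ER stress, had 9.29, 10.04, and 10.13, and its difference of 0.75 ± 0.07 stayed under 2-fold. CHAC1, which degrades glutathione, had 8.86, 9.18, and 9.43, a difference of 0.31 ± 0.08. Scaling to the 75th percentile gave 0.34 for CHAC1, and raw intensities gave −0.11 beside a median of −0.49 over all genes.
TRIB3, a pseudokinase that restrains ATF4 and DDIT3, went against these genes with 12.85, 12.38, and 12.39. It was lower after IMQ by a log2 difference of −0.46 ± 0.06. Over these 7 genes and CEBPG, a dimer partner of ATF4 whose difference was −0.12, the median difference was 1.07. Of the 8, 6 were higher, against 47.4% of all genes, and 4 were at least 2-fold higher, against 4.36%. VLDLR, a lipoprotein receptor that ATF4 also induces, had 8.50, 9.99, and 9.81, or 2.80-fold more after IMQ than on the Ctrl array.

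**Figure D2:**
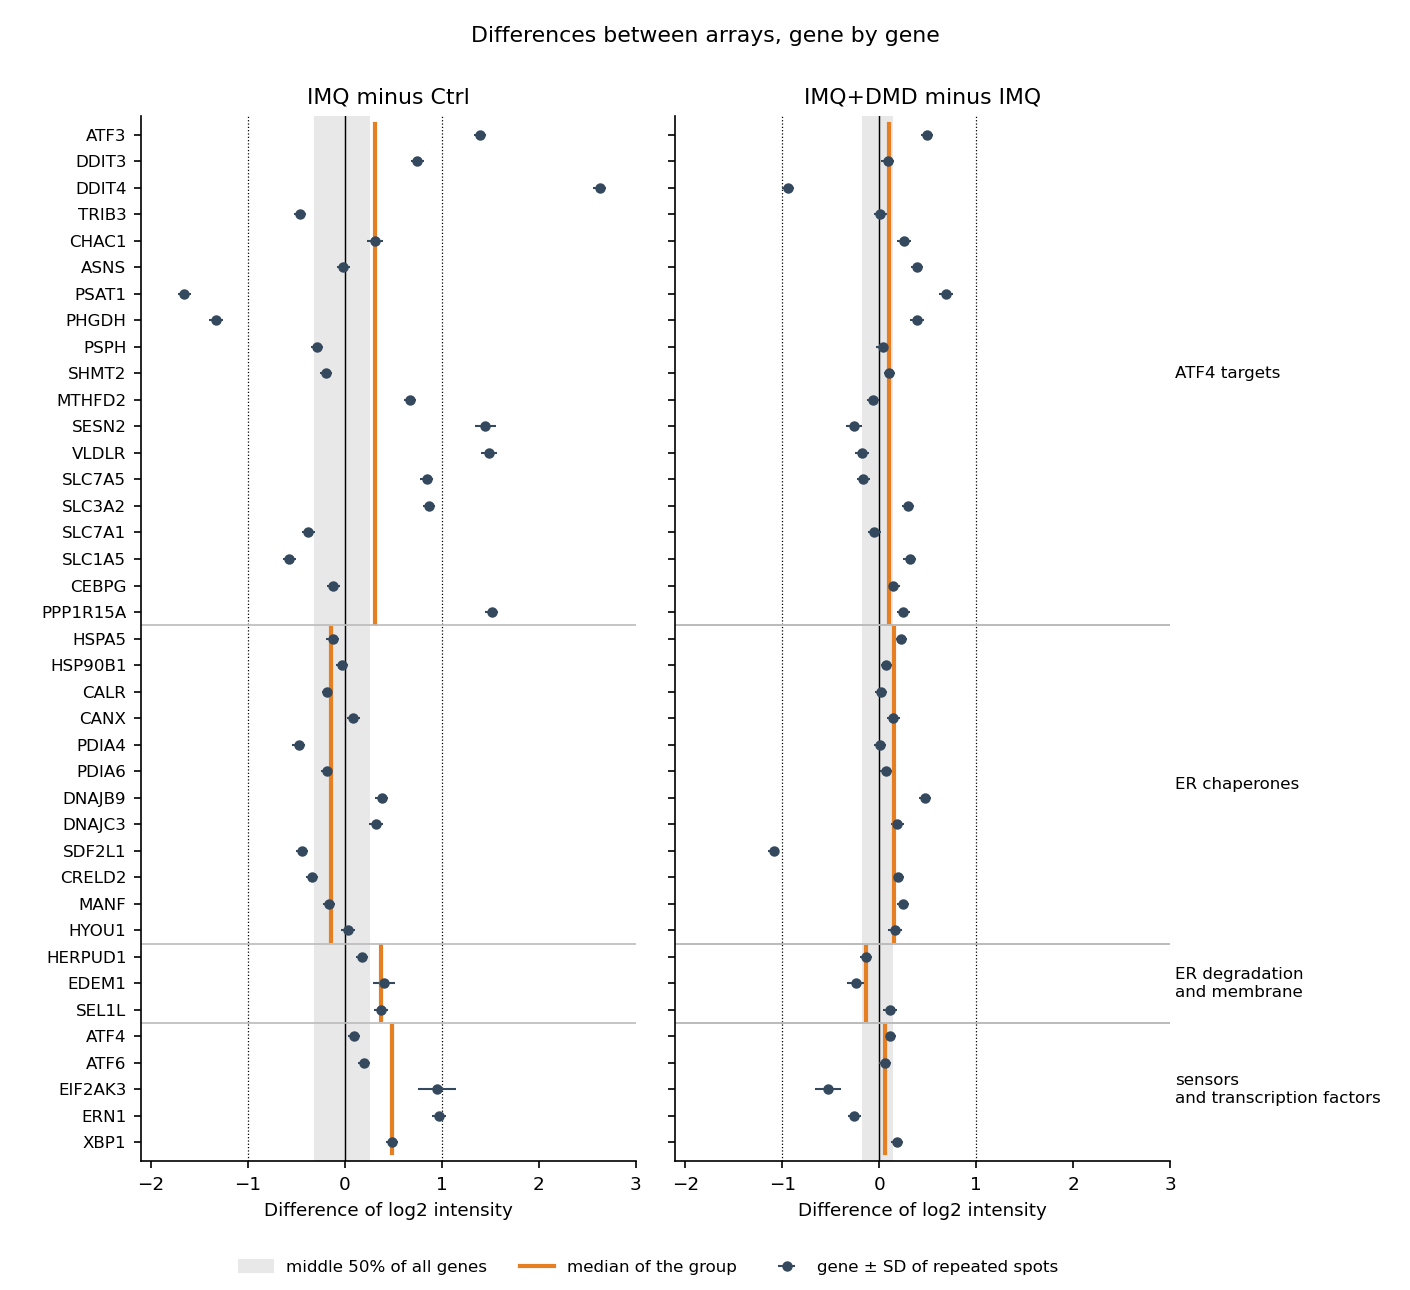
Difference of log2 intensity (horizontal axis) of each gene between IMQ and Ctrl (left) and between IMQ+DMD and IMQ (right), 1 array each, with horizontal bars for the SD expected from repeated spots, orange lines for the median of each group of genes, gray bands for the middle 50% of all genes, and dotted lines at 2-fold. On the left, ATF4 targets spread from −1.65 for PSAT1 to 2.63 for DDIT4 and chaperones from −0.47 to 0.38. On the right, SDF2L1 at −1.09 is the only gene beyond 2-fold.

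Enzymes of serine and one-carbon metabolism, by contrast, were mostly lower after IMQ. PSAT1, the aminotransferase of serine synthesis, read at chr9:80944778-80944837 of hg19, had log2 intensities of 10.98, 9.32, and 10.01. It was 3.14-fold lower on the IMQ array than on the Ctrl array, a difference of −1.65 ± 0.07, and the IMQ+DMD array lay between the other two. PHGDH, the dehydrogenase that opens the same pathway, read at chr1:120285529-120285588, had 10.43, 9.10, and 9.49 and was 2.51-fold lower after IMQ.
PSPH, the phosphatase that completes serine synthesis, differed by −0.29 ± 0.06, and SHMT2, the mitochondrial enzyme that turns serine into glycine, by −0.19 ± 0.06. MTHFD2, a mitochondrial folate enzyme, was the exception of the 5. Its 10 spots had a mean of 12.24 ± 0.06 (SD) for Ctrl, 12.91 ± 0.05 for IMQ, and 12.85 ± 0.06 for IMQ+DMD. The Ctrl spots lay below all others, while the IMQ and IMQ+DMD spots overlapped. Over the 5 enzymes, the median difference between IMQ and Ctrl was −0.29, with 4 of 5 lower, against 10944 of 20816 genes.
ASNS, the asparagine synthetase that is widely used as a reporter of ATF4, did not follow either pattern. It had 11.63 for Ctrl, 11.62 for IMQ, and 12.01 for IMQ+DMD, and the first difference of −0.01 was smaller than the SD of 0.06.

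Amino acid transporters lay on both sides of Ctrl. SLC7A5 and SLC3A2, the light and heavy chains of the LAT1 transporter of large neutral amino acids, were higher after IMQ by 0.84 ± 0.07 and 0.87 ± 0.06. SLC7A1, a carrier of cationic amino acids, and SLC1A5, a glutamine carrier, were lower, with differences of −0.38 ± 0.07 and −0.57 ± 0.07. None of the 4 reached 2-fold with quantile normalization, against 4.36% of all genes higher and 4.53% lower. SLC1A5 was past 2-fold lower with spike-in scaling, its raw intensities being 2248 for Ctrl and 1131 for IMQ. The spot of SLC7A1 on the IMQ array was uneven, its pixel spread being above 97.9% of the spots of like brightness on that array, and its part in the difference was not tested.

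ER chaperones differed little between IMQ and Ctrl. None of the 12 reached 2-fold in either direction, against 4.36% of all genes higher and 4.53% lower. The median difference was −0.15 with a range from −0.47 to 0.38. By sign, 8 of 12 were lower, against 10944 of 20816 genes, but 7 of 12 were higher with scaling to the 75th percentile and 0 of 12 with spike-in scaling, under which PDIA4 had −0.95 and SDF2L1 −0.86. HSPA5 (BiP), the main Hsp70 of the ER and a standard marker of ER stress, had log2 intensities of 11.16, 11.04, and 11.26 on the Ctrl, IMQ, and IMQ+DMD arrays. HSP90B1 (GRP94), the Hsp90 of the ER, had 15.75, 15.72, and 15.80. For both genes the values on the 3 arrays lay within 0.22 of each other.
The calcium-binding lectin chaperones CALR and CANX differed by −0.18 and 0.09 after IMQ. The disulfide isomerase PDIA4 had the lowest difference, −0.47 ± 0.06, from 12.00 on the Ctrl array to 11.53 on the IMQ array, and PDIA6 differed by −0.18. The BiP cochaperones DNAJB9 and DNAJC3 were the highest at 0.38 ± 0.06 and 0.32 ± 0.07.
DNAJB9 had 11.19, 11.57, and 12.04, the difference after IMQ being 0.45 when arrays were scaled to the 75th percentile and −0.0020 in raw intensities. Its spots on the Ctrl and IMQ+DMD arrays were more uneven than 98.7% and 97.5% of spots of like brightness. CRELD2 and MANF, secreted ER stress proteins, differed by −0.34 and −0.17, and HYOU1, a large Hsp70 relative, by 0.03. SDF2L1, a BiP-associated folding factor, had 15.27 on the Ctrl array and 14.83 on the IMQ array, a difference of −0.44 ± 0.06.

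All 3 degradation genes were higher after IMQ, against 9872 of 20816 genes, with differences from 0.17 to 0.40. HERPUD1, a membrane scaffold of ER-associated degradation, had 14.33, 14.50, and 14.37, EDEM1, which marks misfolded glycoproteins, had 7.89, 8.29, and 8.05, and SEL1L, the adaptor of the ubiquitin ligase HRD1, had 10.40, 10.77, and 10.88. The 3 differences were 0.35, 0.37, and 0.42 with scaling to the 75th percentile, and they were below 0 without normalization, where the median of all genes was −0.49. EDEM1 also rested on a spot on the IMQ array that was more uneven than 99.8% of its like, and 2 weaker probes of SEL1L gave differences of 0.03 and −0.12.

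All 5 sensors and transcription factors were higher on the IMQ array with quantile normalization, against 9872 of 20816 genes. Their median difference was 0.49, and none reached 2-fold with that normalization. With spike-in scaling, ATF4 (−0.22) and ATF6 (−0.28) were lower and XBP1 differed by 0.03, beside a median of −0.62 for all genes. ERN1 had 9.60, 10.57, and 10.32, a difference of 0.97 ± 0.07 that was close to the threshold. A weaker probe of ERN1, near a log2 intensity of 6, gave 0.23. EIF2AK3 had 6.88, 7.83, and 7.30, a difference of 0.95 ± 0.20 with the widest SD of all the genes since it was the dimmest probe.
XBP1 was read by 10 spots, of which 9 were used on the IMQ array, where a spot marked as an outlier was left out. The spots averaged 12.75 ± 0.04 for Ctrl, 13.24 ± 0.04 for IMQ, and 13.42 ± 0.04 for IMQ+DMD. The 3 ranges of spots, from 12.65 to 12.81, from 13.17 to 13.29, and from 13.36 to 13.47, did not overlap, and the order was the same as for ATF3. The probe does not tell the spliced from the unspliced form. ATF6 had 11.82, 12.02, and 12.08, and ATF4 itself 16.17, 16.26, and 16.37. For ATF4 and ATF6 the differences of 0.10 and 0.20 after IMQ were 0.35 and 0.30 with scaling to the 75th percentile. Without normalization they were −0.098 and −0.15, above the median of all genes of −0.49.

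**Figure D3:**
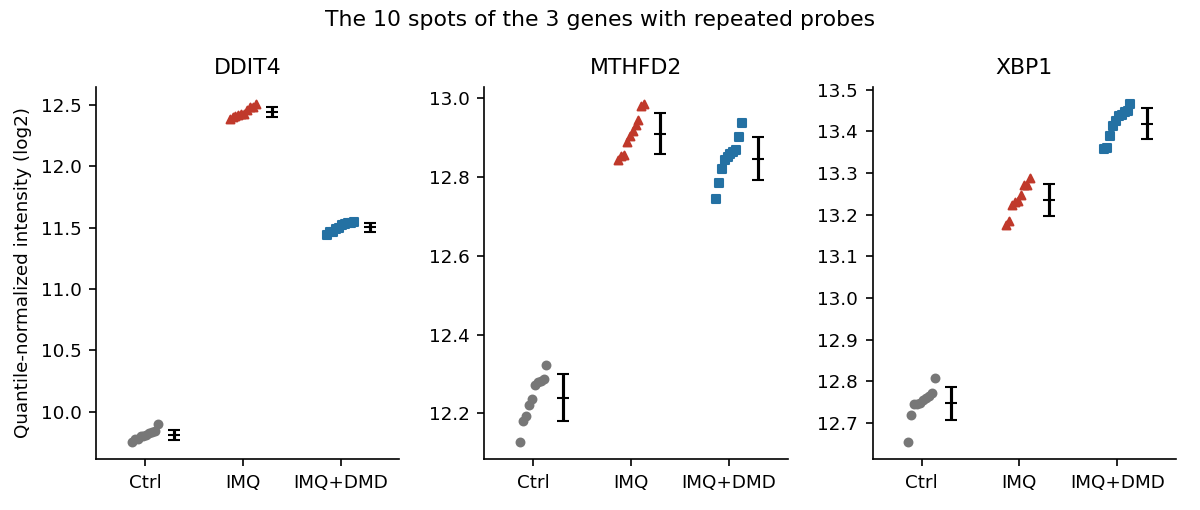
Quantile-normalized intensity on the log2 scale (vertical axis, a separate range for each gene that does not start at 0) of the 10 spots of DDIT4, MTHFD2, and XBP1 on each array (horizontal axis; 9 for XBP1 on the IMQ array), with the mean and SD of the spots beside them. Spots are sorted by value and come from 1 culture per condition. The IMQ and IMQ+DMD spots overlap for MTHFD2 and not for DDIT4 or XBP1.

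With DMD before IMQ, most of the 39 genes lay close to their level after IMQ alone. None was at least 2-fold higher on the IMQ+DMD array, against 0.835% of the 20727 genes compared, and SDF2L1 was the only gene at least 2-fold lower, against 0.999% of all genes. SDF2L1, read at chr22:21998511-21998570 of hg19, had 14.83 with IMQ and 13.74 with IMQ+DMD, a difference of −1.09 ± 0.06 and 2.13-fold lower. Its Ctrl value of 15.27 was the highest of the 3, and the difference between IMQ+DMD and Ctrl was −1.53. The spots of SDF2L1 were even, with a pixel spread above that of 30.4 to 34.4% of spots of like brightness, but the gene had a single probe and a single spot on each array.
DDIT4 came next, with a difference of −0.94 ± 0.06 that was just short of 2-fold and passed it when arrays were scaled to the 75th percentile (−1.12) as well as in raw intensities (−1.09). It remained 1.69 above Ctrl. EIF2AK3 differed by −0.53 ± 0.13, ERN1 by −0.26 ± 0.07, and SESN2 by −0.26 ± 0.08. Each of these 4 genes was lowest on the Ctrl array and highest on the IMQ array.
PSAT1 had the largest gain with DMD, 0.69 ± 0.07 from 9.32 to 10.01, and its difference from Ctrl was then −0.96. PHGDH had a gain of 0.39 ± 0.07, ASNS one of 0.39 ± 0.06, and ATF3 one of 0.49 ± 0.06. Of the genes that were at least 2-fold higher after IMQ, ATF3 and PPP1R15A were thus higher still with DMD, while SESN2, VLDLR, and DDIT4 were lower. TRIB3 and DDIT3 differed by 0.01 and 0.09, within 2 SD of repeated spots.
The remaining chaperones had differences from 0.01 for PDIA4 to 0.47 for DNAJB9, and HSPA5 differed by 0.22 ± 0.06. Counting by sign, 11 of 12 chaperones were higher with DMD than with IMQ alone, against 9876 of 20727 genes. The count for the chaperones fell to 7 of 12 when the arrays were scaled to their 75th percentile or not normalized. Over all 39 genes, 18 differed by over 3 times the SD of repeated spots. This share was not computed for all genes either, so the count does not set the 39 genes apart.

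Set side by side, the median of the ATF4 targets lay above that of the chaperones after IMQ. The addition of DMD to IMQ left the distance between the medians much as it was. The median difference between IMQ and Ctrl was 0.31 for the 19 ATF4 targets and −0.15 for the 12 chaperones, beside −0.03 for all genes, a gap of 0.46 between the groups. The gap was from 0.31 to 0.54 under the other ways of processing the arrays, but it was −0.0099 once ATF3, DDIT3, DDIT4, PPP1R15A, and VLDLR were left out of the targets. Between IMQ+DMD and IMQ, the medians were 0.10 and 0.15 beside −0.01 for all genes, and the gap was −0.05. The gap was 0.50 between IMQ+DMD and Ctrl, a comparison that shares its arrays with both others. These medians describe 3 arrays and carry no test.
By sign, 10 of the 19 ATF4 targets were higher after IMQ and 9 lower, against 9872 and 10944 of 20816 genes. Their median was the value of CHAC1, and ASNS was next below it at −0.01. The sign of this median depended on which members were counted. Without ATF3, DDIT3, DDIT4, PPP1R15A, and VLDLR, the median was −0.16, close to that of the chaperones. Each gene left out lay above the median of the targets, so leaving them out could only lower the median and the gap. SESN2, with a difference of 1.45, was kept. The middle 50% of all ATF4 targets ran from −0.33 to 1.13, compared with −0.22 to 0.05 for the chaperones. The targets thus differed from the chaperones in spread as well as in median.
The level against Ctrl depended on how the arrays were scaled. The IMQ array had the fewest probes well above background, 66.6% against 72.0% for Ctrl and 71.9% for IMQ+DMD. The 75th percentile of intensity was 622 for Ctrl, 455 for IMQ, and 463 for IMQ+DMD. By that measure both treated arrays were dimmer than Ctrl. Without normalization between arrays, the median difference of all genes between IMQ and Ctrl was −0.49, and with scaling to 10 spike-in probes it was −0.62. Relative to all genes, the median of the ATF4 targets lay 0.34 higher with quantile normalization and 0.38 higher with each of these alternatives. The chaperones lay at −0.12 relative to all genes with quantile normalization and at 0.07 without normalization, so their side was not settled. Between IMQ+DMD and IMQ, the median of all genes was 0.13 with spike-in scaling, compared with 0.15 for the ATF4 targets and 0.20 for the chaperones.
The same choice moved the calls over all genes. Between IMQ and Ctrl, 908 genes were at least 2-fold higher and 944 lower with quantile normalization, compared with 370 and 4504 with spike-in scaling. Between IMQ+DMD and IMQ, 173 were higher and 207 lower, compared with 538 and 104 with scaling to the 75th percentile.

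**Figure D4:**
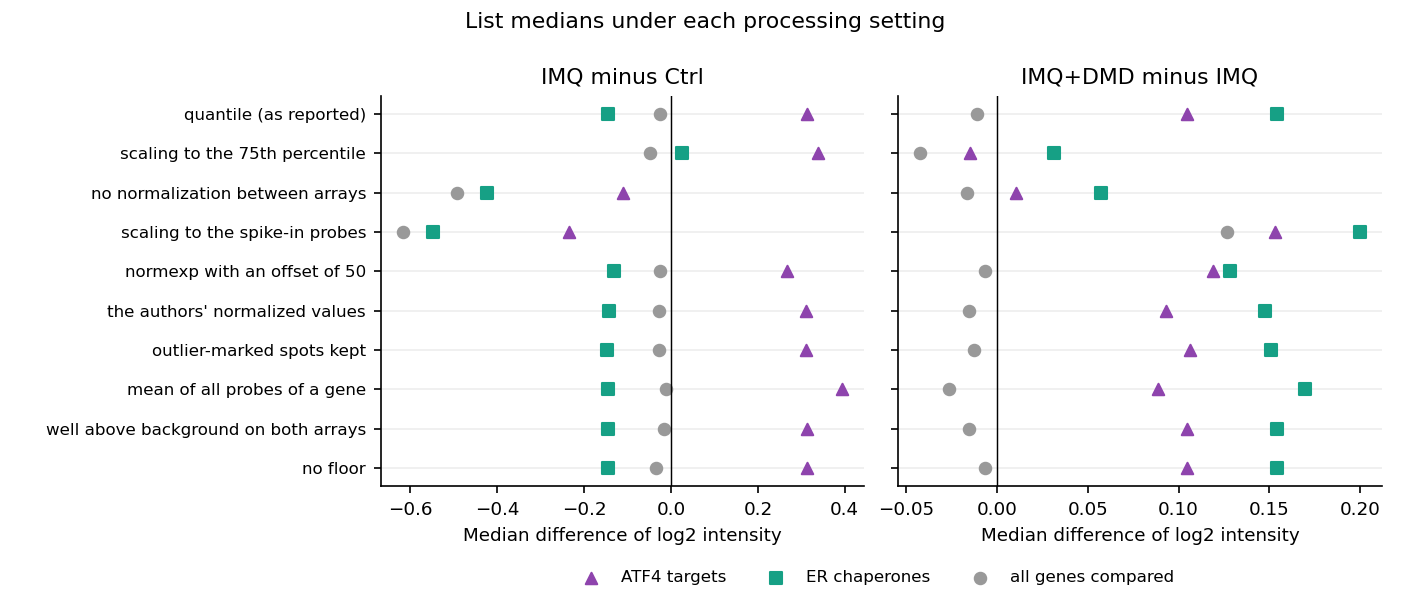
Median difference of log2 intensity (horizontal axis, a separate range for each panel) of the 19 ATF4 targets (purple triangles), the 12 chaperones (green squares), and all genes compared (gray circles) under each way of processing the 3 arrays (vertical axis), for IMQ minus Ctrl (left) and IMQ+DMD minus IMQ (right). On the left, the triangles lie to the right of the squares in all 10 settings, while the position of both against 0 shifts with the scaling. On the right, triangles and squares lie between −0.02 and 0.20.

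Of the 39 genes, 8 had more than 1 probe, which gave a second reading on the same arrays. For ATF3, 3 of 4 probes gave differences between IMQ and Ctrl from 1.40 to 1.60, and the fourth, at chr1:212792519-212792578 of hg19, gave −0.15. All 4 ATF3 probes were higher with DMD than with IMQ alone, by 0.49 to 0.76. The weaker VLDLR probe was not well above background on the Ctrl array, and the gene was at least 2.15-fold higher after IMQ by that probe. The other probes of HSP90B1 and CANX differed by 0.03 and 0.16 after IMQ. For CHAC1, the weaker probe gave −0.58 between IMQ+DMD and IMQ against 0.25 for the probe used, so the direction with DMD was not shared. The second DNAJC3 probe was well above background only after IMQ.

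Further genes of the response, on lists kept apart from the 39, also lay on both sides of Ctrl. Of 36 further ATF4 targets, 6, or 16.7%, were at least 2-fold higher after IMQ, against 4.36% of all genes, and 2, or 5.56%, were at least 2-fold lower, near the 4.53% of all genes. With DMD, 0 of the 35 compared passed 2-fold, against 0.835% of all genes higher and 0.999% lower, and for STC2, which was not well above background on the IMQ+DMD array, the data give only that it was at least 1.87-fold lower. SLC7A11, the cystine carrier of glutathione supply, which NRF2 also raises, had 9.64, 14.23, and 14.63 on the Ctrl, IMQ, and IMQ+DMD arrays. CEBPB, a C/EBP transcription factor of macrophage activation, had 12.59, 15.61, and 15.62. VEGFA, an angiogenic factor, had 9.06, 12.08, and 11.23, a difference of −0.85 with DMD.
The stress cytokine GDF15 and the E3 ligase adaptor KLHL24 were higher after IMQ by 1.11 and 1.08. CBS, which condenses homocysteine with serine, had 14.13, 12.62, and 12.60, and EIF4EBP1, a repressor of cap-dependent translation, had 14.51, 13.00, and 12.97. Both had a difference of −1.51 after IMQ, and with DMD their differences were −0.02 and −0.03.
Of 38 further ER folding and degradation genes, 1 was at least 2-fold higher after IMQ, the oxidase ERO1LB, with 6.54, 7.64, and 7.46 on the 3 arrays, and none was at least 2-fold lower, against 4.36% and 4.53% of all genes. The median of these 38 was 0.12, against −0.15 for the 12 chaperones. Of 15 further sensors and eIF2α genes compared, 1 was past 2-fold, TXNIP, a binder of thioredoxin, with a difference of −1.82, a share of 6.67% beside 4.53% of all genes lower.

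The cells were checked against cell type markers. Of 8 macrophage markers, 6 were found by symbol and all 6 were well above background on all 3 arrays. CD14 had 14.44, 13.71, and 13.21, CSF1R had 17.76, 17.40, and 17.19, and SPI1 had 14.15, 14.17, and 14.25. Of 8 markers of lymphoid, epithelial, fibroblast, and liver cells, EPCAM was not well above background on any array, and the other 7 had log2 intensities between 5.19 and 8.71. MS4A1, a B cell marker, was 0.92 higher on the IMQ+DMD array than on the IMQ array, from 6.38 to 7.29, and its part in the differences above was not tested. From RNA of whole cultures, fewer cells with a transcript and less transcript per cell cannot be told apart.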

How the data were processed

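RNA of THP-1 macrophages in 3 conditions was labeled with Cy3 and measured on 1 one-color array each. The authors deposited the scanner output of Feature Extraction 10.5.1.1, in which each spot has a background-corrected intensity, and a table of raw and quantile-normalized intensity per probe, whose raw column equaled the scanner output within 0.1% for each of 57901 single-spot probes. Probe coordinates are those of the deposited files. Exon and UTR placement of the probes was not analysed here.

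The processed intensity, without control spots and spots marked as outliers (52, 73, and 82 on the Ctrl, IMQ, and IMQ+DMD arrays), was quantile normalized before taking logs (limma 3.58.1, R 4.3.3), and log2 values of repeated spots were averaged. Later steps ran in Python 3.11.15 (numpy 2.4.6, pandas 2.3.3, matplotlib 3.10.9). Dim probes were raised, where lower, to a floor, the lowest level among probes well above background on that array (log2 4.04, 4.57, and 4.08). A gene was compared where the brighter array was well above background, and it counted as different at 2-fold. The number of arrays limits the precision, and no test was run. Noise was the median SD of the 300 probes with 10 spots, by brightness (0.05 between log2 values of 10 and 11). Evenness was the pixel SD of a spot in percent of its mean, ranked among spots within 1.5-fold of its brightness. The comparison step was tested on simulated data. Motifs were searched by letters on both strands, and a gene held a motif if any of its windows did.

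Groups came from the sample titles. The genes, the lists, and the rules for named genes were chosen with earlier results of these data known. Named with all 3 values were genes past 2-fold, 12 genes listed by name, and the extremes of each list. Of the further lists, at most 5 genes past 2-fold were named in each direction. CD14, CSF1R, SPI1, MS4A1, and the probes and uneven spots singled out were chosen after their values were seen. As alternatives, the arrays were left without normalization, scaled to 10 spike-in probes or to the 75th percentile, or corrected by normexp with an offset of 50. The normalized values of the authors, outlier-marked spots, the mean of all probes of a gene, a stricter filter on dim probes, no floor, a 1.5-fold threshold, and other list membership were also tried.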

Additional observations from a re-analysis of the deposited data

How the results depend on the processing

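Over 48 differences of single genes and 9 alternatives, 132 of 432 values could not move, since they came from background filters that every gene passed or from averaging probes of a gene with 1 probe. Of the other 300, 267 kept their direction, and 22 reversed a difference that was at least the SD of repeated spots. Between IMQ and Ctrl, the values of CHAC1, DNAJB9, HERPUD1, EDEM1, SEL1L, ATF4, and ATF6 were −0.11, −0.0020, −0.10, −0.081, −0.033, −0.098, and −0.15 without normalization between arrays and −0.23, −0.13, −0.23, −0.20, −0.16, −0.22, and −0.28 with spike-in scaling, where all genes had medians of −0.49 and −0.62. Between IMQ+DMD and IMQ, scaling to the 75th percentile gave DDIT3 −0.015, HSP90B1 −0.042, SEL1L −0.016, and ATF4 −0.027, no normalization gave HSP90B1 −0.016 and ATF4 −0.0011, spike-in scaling gave EDEM1 0.0044, and the mean of all probes gave CHAC1 −0.16.

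The median of the ATF4 targets between IMQ and Ctrl was −0.16 without ATF3, DDIT3, DDIT4, PPP1R15A, and VLDLR, −0.11 without normalization, −0.23 with spike-in scaling, and 0.39 with the mean of all probes. That of the chaperones was 0.025 with scaling to the 75th percentile, −0.42 without normalization, −0.55 with spike-in scaling, and −0.030 with the degradation genes added. Between IMQ+DMD and IMQ, scaling to the 75th percentile gave −0.015 for the ATF4 targets and 0.031 for the chaperones, and no normalization gave 0.010 and 0.057. At a 1.5-fold threshold, 11 genes were higher after IMQ, against 2247 of the 20816 genes compared. With DMD 1 was higher and 2 were lower, against 964 and 975 of the 20727 genes compared. Spike-in scaling left 2 genes at least 2-fold higher after IMQ, DDIT4 and PPP1R15A, and 3 at least 2-fold lower, PSAT1, PHGDH, and SLC1A5. Over all genes, 370 were higher and 4504 lower with that scaling. With DMD, 2 genes were at least 2-fold lower under no normalization and under scaling to the 75th percentile, against 91 and 104 of all genes. The cause of these shifts was not tested.

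No paired analysis was possible because each condition had 1 array. Genes read by a single spot on each array rest on 1 measurement, and dim probes are the least precise, with a median SD of 0.21 between log2 values of 5 and 6 against 0.04 between 14 and 15.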

Other observations

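The genes of tRNA charging, which ATF4 also controls, lay near their Ctrl level as a group. Over 12 cytosolic aminoacyl-tRNA synthetases, the median difference between IMQ and Ctrl was 0.03. Of the 12, 7 were higher and 5 lower, against 9872 and 10944 of 20816 genes. None reached 2-fold, against 4.36% of all genes higher and 4.53% lower. The synthetases ranged from −0.98 for AARS, the alanyl-tRNA synthetase, to 0.65 for WARS, the tryptophanyl-tRNA synthetase, both named after their values were seen. With DMD added to IMQ, their median difference was 0.05.

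Among the 17 ATF4 targets with a promoter window, the 7 with the response element core had a median difference of −0.01 between IMQ and Ctrl, with a range from −0.57 to 1.40, and the 10 without it had 0.80, with a range from −1.65 to 2.63. Between IMQ+DMD and IMQ these medians were 0.29 and −0.03. Among the chaperones, the 6 with the ER stress element had −0.15 after IMQ and the 6 without it −0.07, and with DMD the medians were 0.11 and 0.17. These splits rest on letter matches within the windows only, elements outside them were not searched, and no test was run.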
